A study of Mus musculus with 2 samples.

Results

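The peaks described here are the sites of a POU5F1 chromatin immunoprecipitation (ChIP-seq) experiment that were called for the whole series and in neither of its replicates. They are the 687 of 5515 peaks of the whole-series list on the mouse genome build mm9 that overlapped no peak of the replicate 1 list (1330 peaks) or the replicate 2 list (6324 peaks) by even 1 bp. The cells were E14TG2a.4, mouse embryonic stem cells of a male line from strain 129/Ola, whose age the labels give as 3.5 days at the embryonic stage. The antibody was against POU5F1, also called OCT4, and the labels give 1 group of 2 biological replicates with no treatment. The sources used here do not say how the replicates were combined into the whole-series list. The possible control that the labels list was not analysed here. The members were selected on the peak calls themselves. The other 4828 whole-series peaks comprised 1209 in both replicate lists, 3575 in the list of replicate 2 only and 44 in that of replicate 1 only. Each whole-series peak carries 1 value and no replicate error, and no read counts were used, so depth is unknown.

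POU5F1 is a transcription factor with a bipartite POU domain that keeps embryonic stem cells pluripotent together with SOX2 and NANOG. It binds an octamer alone, a composite of a SOX site beside an octamer together with SOX2, and palindromic or extended elements called MORE and PORE as a homodimer. Weak ChIP-seq peaks lie close to the limit of the peak caller, where small differences in reads can decide whether a site is listed.

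The elements were searched on both strands within 100 bp of each peak centre. They were the octamer ATGCAAAT (exact), MORE ATGCATATGCAT (exact), PORE ATTTGAAATGCAAAT (up to 2 mismatches) and the SOX-POU composite (up to 2 mismatches). PORE and the composite each contain an octamer, so the elements overlap one another. Only 1 of the 687 peaks held a perfect composite, in an intron near Cdk12, which encodes a transcription-elongation kinase. Another 8 held a composite with 1 mismatch and 31 one with 2 mismatches. The clearest composites, MORE and PORE are shown because they are the letters that the comparisons count. An exact octamer was found in 75 of the 687 windows, and the one near Otx2, a gene described below, is an example. Each is read 5′ to 3′ on the strand given, from the mm9 reference, with the element in capitals and 8 bases on each side.
Cdk12, chr11:98118354-98118384, minus strand, composite: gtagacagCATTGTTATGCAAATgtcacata
Fsip1, chr2:118111206-118111236, minus strand, composite: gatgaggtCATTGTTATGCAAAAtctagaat
Gtf2i, chr5:134779754-134779784, plus strand, composite: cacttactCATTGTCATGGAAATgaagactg
Rpe, chr1:66746629-66746659, minus strand, composite: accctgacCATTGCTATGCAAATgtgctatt
Slc4a7, chr14:15406870-15406900, minus strand, composite: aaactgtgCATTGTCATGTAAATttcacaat
Pop1, chr15:34507900-34507930, minus strand, composite: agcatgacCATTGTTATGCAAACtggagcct
Cyp4f15, chr17:32863126-32863156, minus strand, composite: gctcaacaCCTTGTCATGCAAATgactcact
D3Bwg0562e, chr3:117013859-117013889, minus strand, composite: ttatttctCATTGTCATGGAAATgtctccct
Otx2, chr14:49282672-49282695, minus strand, octamer: tgagtcctATGCAAATgttgggtt
Yy1, chr12:110001962-110001989, plus strand, MORE: acatctgcATGCATATGCATacaccctg
Rab12, chr17:66833488-66833518, plus strand, PORE: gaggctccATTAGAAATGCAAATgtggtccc

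Positions are counted from 1 at the 5′ end of the element. The composite near Fsip1 differed by T15A, that near Pop1 by T15C and that near Slc4a7 by C11T. Those near Gtf2i and D3Bwg0562e both differed by C11G. These positions all lie in the octamer. Those near Rpe (T6C) and Cyp4f15 (A2C) differed in the SOX part. The remaining composite with 1 mismatch lay in an intron of Prrc1, with a peak signal of 4.7. The PORE element near Rab12 differed by T4A. The Yy1 site, 29.2 kb upstream of the gene for a zinc-finger regulator, was the single one of the 687 with an exact MORE. These peaks were not strong ones. The Cdk12 peak had a signal of 3.82 and the Yy1 peak 3.83, while the Fsip1 and Gtf2i peaks had 4.99 each.

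The 687 peaks, which were chosen by peak calls, lay at the low end of the list. The signal, which the authors deposited with no statement of its scaling, ranged from 2.4 to 7.24 among them, with a median of 4.41 and quartiles of 4.11 and 4.7. The other whole-series peaks ranged from 2.9 to 32.6, with a median of 5.81. The median was 4.99 for peaks in the replicate 1 list only, 5.29 for those in the replicate 2 list only and 8.63 for those in both. The authors' −log10 p had a median of 6.28 among the 687 and 12.3 among the others. The ranges overlapped, so that a low value did not by itself place a peak in neither list. Of the 671 whole-series peaks with a −log10 p from 5 to 6, 276 (41.1%) were in neither list, and of the 2995 with 10 or more, 19 (0.634%) were. These values belong to the choice of the members and were not tested.

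**Figure D1:**
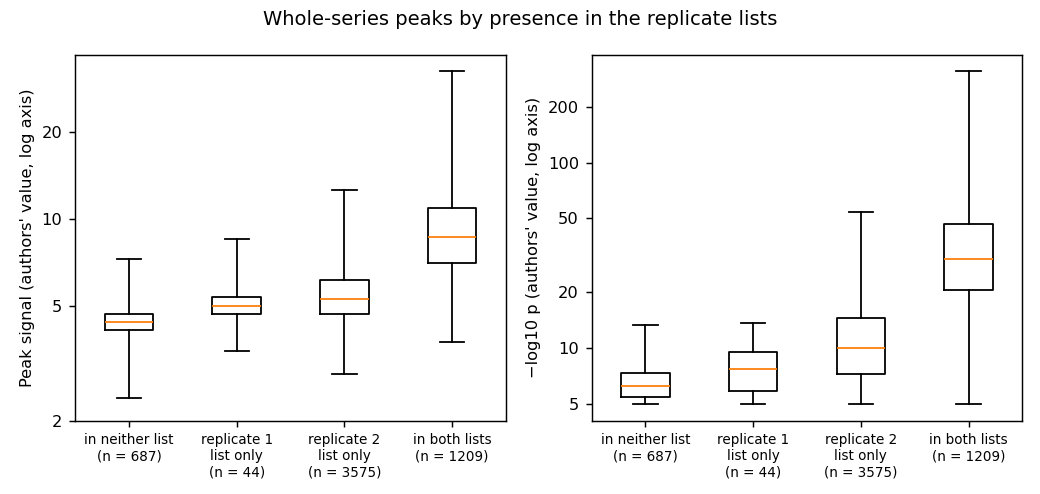
Signal (left) and −log10 p (right) of whole-series peaks as deposited by the authors, on log axes, by presence in the replicate lists. Boxes span the quartiles with the median as a line and whiskers reach the lowest and highest peak. The 687 peaks in neither list have the lowest medians, 4.41 and 6.28, and overlap every other class.

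The 19 with a −log10 p of 10 or more included the peak 0.465 kb upstream of Nufip2, an RNA-binding protein gene, with a −log10 p of 13.4 and a signal of 5.29. Others lay in an intron of St5 (13.3), 76.2 kb from Gadd45a (13.1), a DNA-damage response gene, and in an intron of Cdh1 (10.7). Values between those of Gadd45a and Cdh1 included the peaks nearest to Cenpv (12.9), Gm9930 (12.5, with a composite) and Nynrin (11.0, with a composite and an octamer). Of these 19, 4 held a POU element, 3 lay in multi-copy sequence as defined below and 1 was at a promoter. Over all 687 these shares were 15.6%, 18.9% and 9.17%, in the same order. A small gap to a replicate peak was uncommon. The median gap to the nearest replicate-list peak was 98.9 kb, and 18 of the 687 had one within 500 bp. Just inside the rule, the peak at the Shroom3 promoter (signal 4.7) abutted a replicate peak with a gap of 0 bp. The next smallest gaps were 22 bp near Vstm2a (4.41), 32 bp near Tspan2 (3.82), 102 bp near Zfp936 (2.62) and 108 bp near Rgmb (3.82). Just outside it, the smallest overlaps of other peaks were 86 bp near Csmd1 (4.7), 98 bp near Olfr272 (4.7), 100 bp near Mmd (4.11), 108 bp near Mtpn (6.17) and 115 bp near Pgm1 (4.11). No overlap was as short as 50 bp, so few peaks sat near the 1 bp limit.

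The next question was whether these sites kept POU elements. They did, at a share well above nearby sequence and somewhat below the other peaks. At least 1 POU element was found in 107 of 687 windows, or 15.6% (95% Clopper-Pearson interval 12.9 to 18.5%), and in 15 of the windows 2 kb away, or 2.18% (two-sided exact McNemar test, Benjamini-Hochberg adjusted p = 6.2e-18 over 13 motif measures). The same elements were found in 1009 of the 4828 other peak windows, or 20.9% (19.8 to 22.1%). The difference was −5.32 percentage points (95% interval −8.27 to −2.38; two-sided Fisher's exact test, adjusted p = 0.00624). By the same exact test, unadjusted, the difference did not pass with both sets limited to the median signal of the 687 (−3.94 points, p = 0.0893), to at least their median −log10 p (−3.99, p = 0.0862) or with at most 1 composite mismatch (−2.54, p = 0.0856). Peaks are not replicates, so these p-values describe this list and not the spread between cultures. The intervals cover counting error only.

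Of the single elements, the composite was the one whose difference from the other peaks passed. It was found in 40 windows of the 687, or 5.82% (4.19 to 7.84%), in none of the windows 2 kb away (a count of 0 allows up to 0.536%) and in 9.8% of the other peaks. Its difference from the other peaks was −3.97 points (−5.92 to −2.03, Fisher adjusted p = 0.00624), and its McNemar adjusted p was 7.9e-12. The octamer was found in 75 windows, or 10.9% (8.68 to 13.5%), against 1.46% of the windows 2 kb away (exact McNemar test, adjusted p = 5.0e-13). It was found in 13.7% of the other peaks. That difference of −2.82 points (−5.34 to −0.29) did not pass the adjusted Fisher test (p = 0.109). PORE was found in 1.89% of the 687, 0.873% of the windows 2 kb away and 1.74% of the other peaks, and passed neither exact test (adjusted p = 0.362 for McNemar and 0.894 for Fisher). Exact MORE was found in 0.146% of the 687 and 0.331% of the other peaks (Fisher adjusted p = 0.894). With 1 mismatch, a setting chosen after seeing the data, it was found in 5 of the 687 (0.728%), in 0 windows 2 kb away and in 126 other peaks (2.61%).

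By class, any POU element was found in 15.6% of the 687 peaks, 4.55% of peaks in the replicate 1 list only (2 of 44), 19.9% of those in the replicate 2 list only and 24.3% of those in both. For the composite, the shares in the same order of classes were 5.82%, 0, 8.31% and 14.6%. Within the 687, the share with any POU element was 16.3% at signals up to 4.11, 15.2% from 4.14 to 4.7 and 14.8% from 4.76 to 7.24. The composite share was 3.99%, 6.88% and 7.41% over these 3 ranges and the octamer share 13.4%, 10.1% and 7.41%. Neither trend was tested. Of the 40 windows with a composite, 13 also held an exact octamer, 21 of the 687 held at least 2 of the 4 elements and 580 held none.

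**Figure D2:**
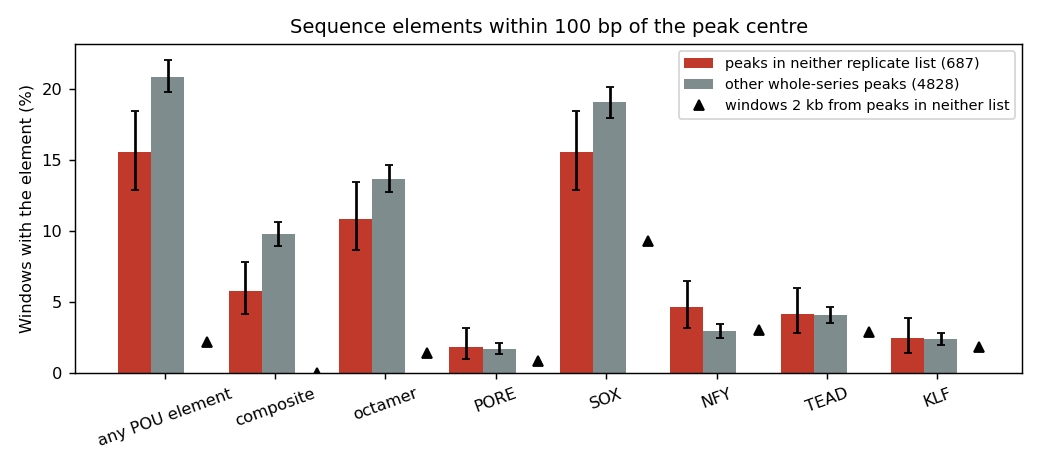
Share of windows (%, y axis) with each element (x axis) in the 687 peaks in neither replicate list (red) and the 4828 other whole-series peaks (grey), with 95% Clopper-Pearson intervals. Triangles are windows 2 kb from the 687. Any POU element stands at 15.6% and 20.9%, against 2.18% for the shifted windows.

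Where an element was present, it lay farther from the centre of the 687 peaks than of the others. Within 250 bp of the centre, the composite had a median distance of 40.5 bp in the 687 (quartiles 18.5 and 64.5 bp, n = 45) and 21.5 bp in the other peaks (n = 510). It lay within 50 bp of the centre in 64.4% and 80.6% of these. The octamer had a median distance of 44.0 bp in the 687 (n = 91) and 27 bp in the other peaks (n = 758). These distances were not tested.

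Among comparison motifs, only the SOX motif (CATTGTT or CTTTGTT) passed against the windows 2 kb away. It was found in 107 of the 687 windows (15.6%) and in 9.32% of the shifted windows (exact McNemar test, adjusted p = 0.0012). Its share in the other peaks was 19.1%, a difference of −3.48 points that did not pass (Fisher adjusted p = 0.0905). The letters CATTGTT also begin the composite, as in the Cdk12 site shown above, so some windows count for both. The SOX motif apart from the composite was not tested. The NFY motif CCAATCA, bound by a ubiquitous CCAAT-box factor, was found in 4.66% of the 687 and 2.96% of the other peaks (Fisher adjusted p = 0.0905). KLF (GGGTGTGG), ESRRB (TCAAGGTCA), STAT (TTCCNGGAA), TEAD (ACATTCC) and E-box (CACGTG) motifs, and the motif AGATAAG of the GATA-binding factors, passed neither test. The KLF motif, for example, was found in 2.47% of the 687, 1.89% of the shifted windows and 2.4% of the other peaks.

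The sequence under many of the 687 peaks was repeated in the genome. A window was called multi-copy when most of its 24-mers occurred 10 or more times in the mm9 reference, a measure chosen after seeing the files because the reference carries no repeat masking. Multi-copy windows made up 130 of the 687 (18.9%, 16.1 to 22.1%) and 422 of the other 4828 (8.74%, 7.96 to 9.57%). The difference was 10.18 points (7.15 to 13.22; two-sided Fisher's exact test, p = 2.7e-14). It was 6.31 points with both sets limited to the median signal of the 687 (Fisher's exact test, p = 0.00489), 6.6 points with both limited to at least their median −log10 p, 6.02 points without the largest sequence group described below and 5.21 points without the replicate 2 list. By class, the share was 18.9% in neither list, 29.5% in the replicate 1 list only (13 of 44), 9.71% in the replicate 2 list only and 5.13% in both. At 2 or more copies the shares were 28.4% of the 687 and 15.9% of the others (Fisher's exact test, p = 3.0e-14). The sources used here do not say how reads that map to many places were treated, and the part of this treatment in this difference was not tested.

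**Figure D3:**
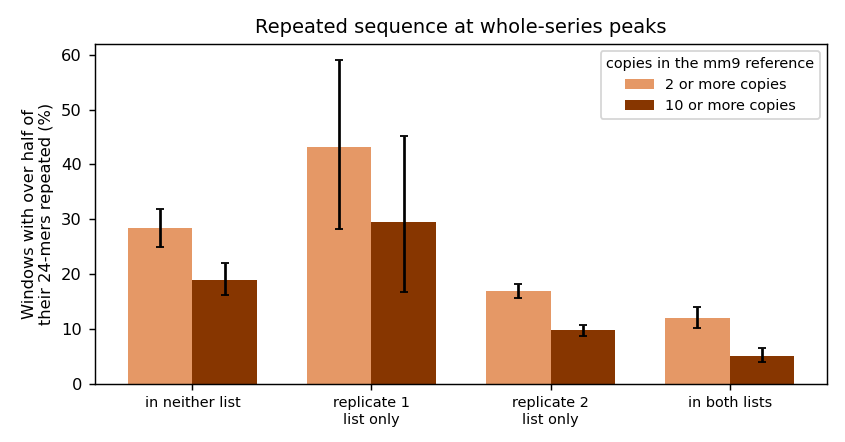
Share of peak windows (%, y axis) in which most of the 24-mers occur at least 2 times (light) or at least 10 times (dark) in the mm9 reference, by presence in the replicate lists (x axis), with 95% Clopper-Pearson intervals. The 687 peaks in neither list stand at 28.4% and 18.9%, above the peaks in both lists, at 12% and 5.13%. The 44 peaks in the replicate 1 list only stand higher, at 43.2% and 29.5%, with wide intervals.

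The multi-copy peaks seldom held POU elements. Of the 130, 7 (5.38%) held one, against 48 (11.4%) of the 422 multi-copy others, a difference that did not pass (Fisher's exact test, adjusted p = 0.11). Among windows that were not multi-copy, 100 of 557 of the peaks in neither list (18%) and 961 of 4406 others (21.8%) held one. The difference there was −3.86 points (−7.27 to −0.45), which did not pass after adjustment either (Fisher's exact test, p = 0.0371, adjusted p = 0.11). The composite share in these windows was 6.82% against 10.7%, a difference of −3.91 points with an adjusted p of 0.0379.

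Single-linkage grouping of windows that shared at least 20 of their 24-mers put 110 of the 687 peaks into 21 groups. The largest group held 50 peaks (7.28% of the 687) on 19 chromosomes, of which 40 were intergenic and 10 intronic, with signals from 3.5 to 5.87 and a median of 4.41. None held a POU element. Another 98 whole-series peaks (2.03% of the others) shared its sequence, of which 88 were in the replicate 2 list only and 8 in both, and none of them held a POU element. The stretch most shared by its 50 peaks is shown because it is the most frequent sequence among the 687. It is read on the plus strand of mm9, and its 24-mers occurred in 31 to 43 of the 50 windows and 639 to 2057 times in the genome, with medians of 33 windows and 994 copies.
largest group, chr1:57365861-57365920: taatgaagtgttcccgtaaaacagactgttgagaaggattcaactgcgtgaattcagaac

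A pair of small groups carried the octamer inside repeated sequence. One joined the peaks nearest to Slc35f4, Chst1 and Ttc29, and the other those nearest to Rpe, Ralyl and Tspan2. Their octamers are shown in capitals with the flanking bases, to show the sequence that recurs within each group. The coordinates are mm9.
Slc35f4, chr14:50227266-50227289, minus strand: ttattcaaATGCAAATtgtaaaac
Chst1, chr2:92509989-92510012, plus strand: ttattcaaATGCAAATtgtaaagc
Ttc29, chr8:80665277-80665300, plus strand: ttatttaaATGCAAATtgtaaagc
Rpe, chr1:66746629-66746652, minus strand: ccattgctATGCAAATgtgctatt
Ralyl, chr3:13168630-13168653, plus strand: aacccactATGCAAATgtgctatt
Tspan2, chr3:102521653-102521676, minus strand: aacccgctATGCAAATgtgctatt

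Another pattern was local. Between Hrh1, a histamine receptor gene, and Atg7, an autophagy gene, 13 of the 687 peaks lay within 74.9 kb at chr6:114459380-114534299, with 9 other whole-series peaks interleaved. Their signals ranged from 2.89 to 6.01 (median 3.94), against 3.59 to 6.15 (median 4.67) for the other peaks of the array. The median 24-mer copy number of the 13 windows ranged from 93 to 117, and the median GC content was 61.0%. None of the 13 held a POU element. The replicate 1 list had 3 peaks and the replicate 2 list 10 in the same interval.

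Some of the highest signals among the 687 lay in repeated sequence. Of the 8 highest, 5 were multi-copy and 2 held a POU element. Over all 687 the multi-copy share was 18.9%, and among the 435 with a signal up to the median it was 19.1%. The 8 were picked by their signal, and a link of signal with copy number was not tested. The highest was 7.24, in a window with a median of 2238 copies whose nearest protein-coding gene, Hace1, was 1300 kb away. Then came peaks nearest to Gm9847 (7.16, median of 25 copies), Gm8356 (6.96), Gdi2 (6.67, with an octamer, 504 kb away), Slitrk6 (6.64), Cadm2 (6.26), Ptgdr (6.17, with an octamer, 8.54 kb from this prostaglandin receptor gene) and Hrh1 (6.01). Another 4 tied at 5.87, near 4931429P17Rik (with a composite), Fgf9, Maml3 and Mbnl1. The highest signals did not have the highest −log10 p. The Hace1 peak had a −log10 p of 6.34 and the Gm9847 peak 5.22, close to the lowest value in the list.

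The promoter share of these peaks was close to that of the others. A peak centre lay within 1 kb of an annotated transcription start site (TSS) in 63 of the 687 (9.17%, 7.12 to 11.6%) and in 518 of the others (10.7%). The difference was −1.56 points (−3.89 to 0.77; Fisher's exact test adjusted over 4 locations, p = 0.315). Sequence within 1 kb of a TSS makes up 4.15% of the sequenced mm9 bases. Exons held 1.31% of the 687 and 2.26% of the others, introns 34.8% and 34.8%, and intergenic sequence 54.7% and 52.3%, none of which passed the exact test (adjusted p = 0.315, 1 and 0.315). The median distance to a protein-coding TSS was 27.3 kb for the 687 and 22.4 kb for the others. POU elements were found in 8 of the 63 promoter peaks (12.7%) and in 99 of the 624 elsewhere (15.9%).

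The 10 highest-signal promoter peaks lay at 9 genes with varied roles. A pair lay at Gm2237 (signals of 5.78 and 4.8), both in multi-copy sequence. The others were at Pglyrp1, a peptidoglycan-recognition protein gene (5.58), Twistnb, an RNA polymerase I subunit gene (5.29), Rpl4, a ribosomal protein gene (5.29, 51 bp upstream of its TSS), Nufip2 (5.29), Tbc1d7, a subunit gene of the TSC complex (4.99), Il17rd, an FGF-signalling inhibitor gene (4.99), Acsl3, a fatty acyl-CoA ligase gene (4.99), and Cenpc1, a centromere protein gene (4.99). All except those at Gm2237 had a median copy number of 1.

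Some pluripotency genes had one of the 687 peaks nearby, and most had another peak nearer. Of 22238 protein-coding genes, 861 (3.87%) had a TSS within 50 kb of the centre of one of the 687, while 5513 (24.8%) had one within 50 kb of another whole-series peak. Of the 25 pluripotency regulators listed, 6 (24%) lay near one of the 687 and 20 (80.0%) near another peak, with 5 near both. Their median distance to one of the 687 was 492 kb, against 1070 kb over all protein-coding genes. This was not particular to pluripotency genes. Among the other gene lists described below, the median ranged from 476 kb (ribosomal and housekeeping genes) to 1480 kb (mesoderm and endoderm genes). For the further embryonic stem cell genes it was 1300 kb. To another whole-series peak the medians were 2.36 kb for the regulators and 144 kb for all genes. Several genes can share 1 peak and the lists were chosen with results known, so these counts carry no test. Without the replicate 2 list, 4262 whole-series peaks would count as members and 22.17% of genes would be near one.

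None of the 6 nearest peaks held a POU element in its window. At Etv5, an ETS-family regulator of self-renewal, an intronic peak (chr16:22406128-22406459, signal 4.41, −log10 p 8.0) lay 4.39 kb from the TSS, and another of the 687 with the same signal lay 11.2 kb away. A whole-series peak that is in a replicate list lay 0.187 kb from the Etv5 TSS. At Myc, the proliferation-driving transcription factor gene, a peak (chr15:61810517-61810795, signal 5.58, −log10 p 7.44) lay 6.29 kb upstream, a second one (3.56) lay 25.3 kb away, and no other whole-series peak was within 50 kb. Myc was the only one of the 6 without such a peak.

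The other 4 peaks lay nearer to another gene or farther away. The peak for Zscan10, a zinc-finger pluripotency gene, was 14.6 kb off and stood at the Zfp13 promoter (signal 4.7), and that for Trp53, the p53 gene, was 15.9 kb off at the Wrap53 promoter (4.41). Sall1, a zinc-finger gene, had a peak 18.6 kb away (4.7) and Klf2, a naive-state Krüppel-like factor gene, one 26.3 kb away (4.7). The core genes had none near. The closest of the 687 was 156 kb from Pou5f1, 492 kb from Sox2 and 2480 kb from Nanog, whereas another whole-series peak lay 1.99, 3.58 and 0.142 kb from these genes.

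Of 30 further embryonic stem cell genes, 6 (20.0%) lay near one of the 687 and 21 (70.0%) near another peak. Alpl, the alkaline phosphatase gene used as a stem cell marker, had an intronic peak 3.18 kb from its TSS (3.82). Fbxo15 had one at 8.74 kb (3.79), Gbx2, a homeobox gene, at 10.4 kb (3.82) and Trim28, a repressor of retroelements, at 11.8 kb (4.62). The Fbxo15 peak lay nearer to 1700034H14Rik (2.39 kb), the Gbx2 peak to D130058E05Rik (7.3 kb) and the Trim28 peak to Zbtb45 (2.5 kb). Other whole-series peaks lay 4.15 kb from Alpl (signal 5.29), 0.625 kb from Fbxo15 (8.81) and 9.86 kb from Trim28 (6.35). Cdh1, the E-cadherin gene, had its intronic peak 14.3 kb from the TSS (chr8:109142115-109142489, signal 4.41, −log10 p 10.7) and no other whole-series peak within 50 kb. Gbx2 likewise had no other peak within that distance. Of 14 primed epiblast genes, 2 (14.3%) lay near one of the 687. One was Otx2, a homeobox gene of the primed state, with a promoter peak 0.196 kb upstream of the TSS (chr14:49282612-49282873, signal 4.11) that held the octamer shown above. The other was T, the mesodermal Brachyury gene, with a peak at 4.27 kb (3.3) and no other peak within 50 kb.

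Genes of other lists also lay near one of the 687. Of 14 trophectoderm genes, 3 (21.4%) lay near one of the 687, against 3.87% of all protein-coding genes, namely Tead4 (20.8 kb, signal 3.82), Fgfr2 (22.9 kb, 4.41) and Tfeb (45.2 kb, 3.82). The Fgfr2 peak lay nearer to Ctbp2 (11.3 kb), and the Tfeb peak stood at the Prickle4 promoter (0.379 kb). Other whole-series peaks lay 0.758 kb from Fgfr2 and 23.6 kb from Tfeb. Of 30 ribosomal and housekeeping genes there were 2 (6.67%), Rpl4 and Rps14 (7.45 kb, 4.41). Of 23 Polycomb genes there was 1 (4.35%), Cbx6 (25.4 kb, 3.82), and of 21 mesoderm and endoderm genes 1 (4.76%), which was T. The Cbx6 peak lay nearer to Nptxr (3.62 kb), and another whole-series peak lay 0.716 kb from Cbx6. There were 0 of 20 neuroectoderm, 0 of 16 LIF and JAK-STAT and 0 of 30 terminal somatic genes. Near other whole-series peaks were 13 of the neuroectoderm (65.0%), 7 of the LIF and JAK-STAT (43.8%) and 8 of the somatic genes (26.7%). The share over all protein-coding genes was 24.8%.

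The last question was whether these peaks stood beside stronger ones. Another whole-series peak lay within 10 kb, edge to edge, of 108 of the 687 (15.7%, 13.1 to 18.7%) and of 730 of the others (15.1%). The difference was 0.6 points (−2.3 to 3.5; Fisher's exact test adjusted over 5 distances, p = 0.898). By the same exact test, the shares were 3.78% and 4.06% at 1 kb, 10.9% and 9.9% at 5 kb, 35.1% and 35.4% at 50 kb (adjusted p = 0.898 each) and 47.0% and 50.4% at 100 kb (adjusted p = 0.515). The median gap to the nearest whole-series peak was 110 kb for the 687 and 99.1 kb for the others.

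**Figure D4:**
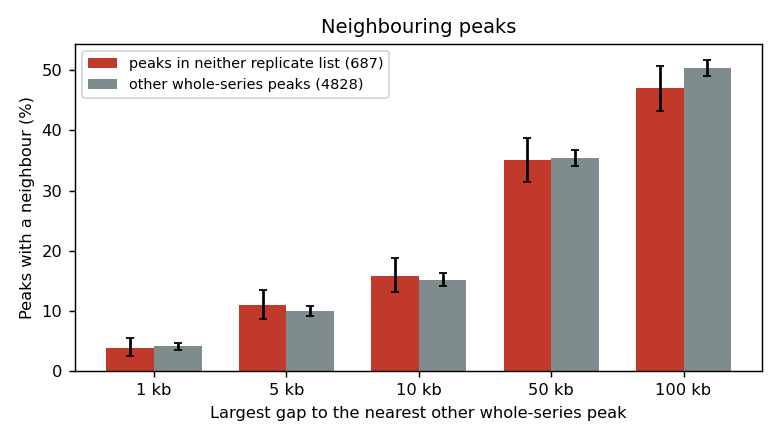
Share of peaks (%, y axis) with another whole-series peak within each gap (x axis) for the 687 peaks in neither replicate list (red) and the 4828 others (grey), with 95% Clopper-Pearson intervals. Within 10 kb the shares are 15.7% and 15.1%, and no pair of bars differs by an adjusted test.

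Where a neighbour was present within 10 kb, it was usually the stronger peak. Of the 108 neighbours, 90 were in a replicate list (27 in both, 60 in that of replicate 2 only and 3 in that of replicate 1 only) and 18 were themselves among the 687. In 86 pairs (79.6%) the neighbour had the higher signal, with a median of 4.41 for these 108 peaks against 5.29 for the neighbours. Counting only neighbours of higher signal, the shares were 13.4% of the 687 and 7.19% of the others, a description with no test, since the 687 are the weaker peaks by the way they were chosen. Limited in both sets to peaks with a signal no higher than the median of the 687, the shares were 14.7% and 15.8% (Fisher's exact test, p = 0.672), a limit chosen after seeing the data. A POU element was found in 14 of the 108 peaks with a neighbour (13.0%) and in 93 of the 579 without one (16.1%).

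The closest pairs were separated by less than a nucleosome's length. A gap of 4 bp separated the Tspan2 peak (signal 3.82, with an octamer) from a neighbour of 4.99. One of the peaks near Hrh1 (3.8) lay 7 bp from a neighbour of 4.36, and that near Vstm2a (4.41) lay 10 bp from one of 5.29. The Shroom3 promoter peak (4.7) lay 22 bp from one of 5.58. The peak near Vmn2r-ps106 (3.59) lay 87 bp from one of 8.32, a peak in both replicate lists. In the other 4 pairs the neighbour was in the replicate 2 list only, and in all 5 it had the higher signal.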

How the data were processed

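The authors deposited peak lists for POU5F1 ChIP-seq on mm9, 1 per replicate and 1 for the whole series. They give a signal per peak as deposited (scaling not stated), a −log10 p-value that the authors deposited, none below 5, and a deposited q-value. The aligner, peak caller and depth are not given in the sources used here. The mm10 lists were not used here, and coordinates were not converted.

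Overlaps were counted from 1 bp. The NCBIM37 (mm9) sequence and the GENCODE M1 annotation gave elements, 24-mer copies and locations, with Python 3.11.15, pysam 0.24.0 and SciPy 1.17.1. Windows of 100 bp on each side of peak centres were compared with the same windows shifted by 2 kb (exact McNemar test) and with other peaks (Fisher's exact test), two-sided, with Benjamini-Hochberg adjustment within each family. The threshold was 0.05 and intervals of shares are Clopper-Pearson. Tests were checked on simulated data. The planned repeat-masked share could not be made, because the reference is not soft-masked, and copy number took its place. Of 218 listed symbols, 217 matched the annotation, 2 of them through another name. Named genes were the pluripotency regulators near a member, up to 4 genes per other list, and genes nearest to the 10 highest-signal members, the 10 highest-signal promoter members, the best elements, and the 5 members closest to each limit or neighbour. Members of the set with a −log10 p of 10 or more were named after their values were seen. The members and lists were chosen with earlier results of these data known.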

Additional observations from a re-analysis of the deposited data

How the results depend on the processing

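The excess of POU elements over windows 2 kb away kept its direction and passed under all 14 alternatives, with differences from 9.02 to 26.06 points. The deficit against other peaks kept its direction under all 16. By unadjusted p from Fisher's exact test it no longer passed with 1 composite mismatch (−2.54 points, p = 0.0856), with both sets limited to the median signal of the 687 (−3.94, p = 0.0893) or to at least their median −log10 p (−3.99, p = 0.0862), and it ranged from −6.14 to −4.38 with 1 replicate list left out. Among windows that are not multi-copy it was −3.86 points, with an exact-test p of 0.0371 that did not pass after adjustment (0.11). The signal and −log10 p limits leave fewer peaks, and otherwise the cause was not tested. The multi-copy difference passed under all 11 alternatives, from 5.21 to 12.48 points, with 6.02 without the largest sequence group. The promoter difference passed under none. The neighbour difference changed sign in 5 of 13 settings and did not pass in 12. The other setting counted only neighbours of higher signal. Its 6.2 points are a description with no test, since the 687 are the weaker peaks by the way they were chosen. For neighbours of higher signal, the difference was −1.07 points with both sets limited to the median signal of the 687 (Fisher's exact test, p = 0.672). Genes near one of the peaks made up 4.51% with overlap counted from 50% of the peak, 1.89% at or above the members' median −log10 p, 1.13% within 10 kb and 7.26% within 100 kb, and 4.13 to 22.17% with 1 replicate list left out. Without the replicate 2 list, 4262 peaks overlap no replicate 1 peak. The alternatives for repeat-masked windows were not run. The copy measure, the largest-group, low-copy and MORE mismatch settings and the signal-limited neighbour count were chosen after seeing the data. No paired analysis was possible because the 2 replicates form 1 group. Without read counts, weak sites missed for depth cannot be told apart from absent ones.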

Other observations

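The 687 peaks were spread over the chromosomes unevenly relative to the other peaks. Chromosome 14 held 44 of them (6.4%) and 3.87% of the others, chromosome 17 held 45 (6.55%) and 4.16%, and the X chromosome held 7 (1.02%) and 1.59%. These shares were not tested. The array between Hrh1 and Atg7 placed 13 of the 687 on chromosome 6. With these included, chromosome 6 held 34 of the 687 (4.95%) and 6.23% of the others, also not tested. Of the 861 genes near one of the 687 peaks, 310 (36%) were also near another whole-series peak. Over all 22238 protein-coding genes that share was 24.8%, and the difference was not tested.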
